A study of Mus musculus with 4 samples.

Results

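Liver zonation markers are genes whose expression differs along the axis of the liver lobule, from the portal tract, where blood enters, to the central vein, where it leaves. Those examined here were 10 genes, 6 of hepatocytes near the central vein (Glul, Cyp2e1, Cyp1a2, Oat, Rgn and Avpr1a) and 4 of portal hepatocytes (Cyp2f2, Hal, Sds and Gls2). Members were the probe sets whose only annotated gene symbol was one of these names, and 8 genes were found by 11 probe sets, out of 8251 named genes and 12422 probe sets. All 6 central-vein genes were represented and, of the portal genes, Cyp2f2 and Hal. Sds, which encodes serine dehydratase, and Gls2, which encodes the liver glutaminase, had no probe set under this rule and were not analysed here, so the portal side rests on 2 genes.

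Total liver RNA had been hybridised to Affymetrix MG_U74Av2 arrays, 2 for PEPCK-TAg mice and 2 for wild-type mice. PEPCK-TAg mice carry a transgene in which the Pck1 promoter (phosphoenolpyruvate carboxykinase, an enzyme of gluconeogenesis) drives both T antigens of SV40, large T and small t, and the wild-type mice were non-transgenic. All animals were B6SJL hybrid males of 58 to 60 days that had been given a diet with 10% protein and 70% carbohydrate without restriction for 4 weeks from weaning. The question of the series is what chronic, low-level expression of these viral proteins does to liver transcripts. Per the labels the arrays are duplicates, with no word on whether each holds the RNA of its own animal, so p-values cover array-to-array spread that could be technical.

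In the lobule, Wnt ligands released by endothelial cells of the central vein activate beta-catenin in nearby hepatocytes, and this keeps the central-vein programme on and the portal programme off. Central hepatocytes take up ammonia as glutamine and carry much of the cytochrome P450 activity, while portal hepatocytes carry out gluconeogenesis, urea synthesis and the breakdown of several amino acids. Pck1, whose promoter drives the transgene, is itself a portal gene in normal liver. The comparison asks whether the central and portal genes moved apart in PEPCK-TAg liver or in the same direction.

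In PEPCK-TAg liver, genes of both zones were lower. Of the 8 genes on the array, 4 fell, Avpr1a, Cyp1a2 and Rgn of the central set and Cyp2f2 of the portal set, and 0 rose (limma, Benjamini-Hochberg adjusted p under 0.05 over 7453 probe sets). Among all tested probe sets 3.07% were called lower, and 9.47% were called in either direction. These calls were 477 higher and 229 lower, and with arrays centred on their medians, which moved the median of all probe sets to -0.14, they were 403 higher and 409 lower. The 4 genes that fell did so to between 28.5% and 49.5% of the wild-type mean signal. Cyp2e1 and Hal were lower on both PEPCK-TAg arrays than on both wild-type arrays and just missed the threshold, and the 2 central genes of nitrogen metabolism, Glul and Oat, did not pass it. The calls of Avpr1a (probe set 92532_at), Cyp1a2, Rgn and Cyp2f2 held under each of 13 alternative settings, among them the 4 fits that left out an array. In those 4 fits a group is left with 1 array, which is assumed to vary as the arrays of the other group do, so they show whether a value rests on 1 array rather than test the spread anew.

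The stretches of 250 bases before the start sites of 4 of these genes are shown because they span the pattern, a central gene that fell, a central gene at the threshold, a portal gene at the threshold and a central gene that did not pass. The sequences are from RefSeq on GRCm38.p6, 5′ to 3′ on the strand of the gene, and capitals mark matches to any of 4 short motifs searched on both strands, the TCF/LEF core CTTTGA, through which beta-catenin acts, the AHR core GCGTG, the HNF1 core GTTAAT and the TATA box TATAAA.
Cyp1a2, chr9:57683656-57683905, minus strand: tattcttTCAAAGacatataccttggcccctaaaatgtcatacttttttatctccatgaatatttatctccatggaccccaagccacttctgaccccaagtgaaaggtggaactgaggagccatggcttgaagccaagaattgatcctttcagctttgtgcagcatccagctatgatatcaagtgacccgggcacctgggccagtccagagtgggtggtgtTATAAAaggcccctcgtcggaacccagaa
Cyp2e1, chr7:140763569-140763818, plus strand: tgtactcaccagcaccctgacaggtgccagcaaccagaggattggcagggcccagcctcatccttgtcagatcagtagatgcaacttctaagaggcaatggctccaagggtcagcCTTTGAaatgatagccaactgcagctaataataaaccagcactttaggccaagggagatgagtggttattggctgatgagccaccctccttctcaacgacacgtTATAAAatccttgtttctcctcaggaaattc
Hal, chr10:93488518-93488767, plus strand: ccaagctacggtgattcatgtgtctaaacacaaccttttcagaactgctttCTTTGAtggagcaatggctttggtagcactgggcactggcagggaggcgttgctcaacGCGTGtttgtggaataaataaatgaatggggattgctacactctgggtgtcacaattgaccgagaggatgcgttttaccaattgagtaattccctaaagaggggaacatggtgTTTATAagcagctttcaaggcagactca
Glul, chr1:153899679-153899928, plus strand: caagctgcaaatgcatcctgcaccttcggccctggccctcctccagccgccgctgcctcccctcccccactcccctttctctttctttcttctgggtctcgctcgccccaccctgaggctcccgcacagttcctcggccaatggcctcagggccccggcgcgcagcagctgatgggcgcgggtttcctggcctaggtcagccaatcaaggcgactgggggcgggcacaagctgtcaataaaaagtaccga

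The table of promoters held 7 of the 10 genes, without Rgn, Sds and Gls2. The TCF/LEF core was present in 3 of the 7, Cyp1a2, Cyp2e1 and Hal, and in 13.8% of the 32851 promoter windows of this length. In Cyp2e1 it lay 135 to 130 bases before the start site, in Hal 199 to 194 bases before it, and in Cyp1a2, on the other strand, 243 to 238 bases before it. The match was therefore found in genes of both zones. The TATA box matched in Cyp2e1, Cyp1a2, Avpr1a and Hal, against 12.4% of all windows. It lay 31 to 26 bases before the start site in Cyp2e1 and 29 to 24 in Cyp1a2. In Hal it lay 28 to 23 bases before it on the other strand, and in Avpr1a further away, at 137 to 132. The AHR core matched in Hal alone among the 7, against 28.2% of all windows, and the HNF1 core in 0, against 6.43%. The GC content of this window was 64.8% in Glul and 60.0% in Oat, against 45.6% to 53.6% in the other 5, among them Cyp2e1 and Hal, which did not pass the test either. A match is a run of letters and not a binding site, and these motifs did not overlap one another in the 7 windows.

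Cyp1a2 encodes the central-vein P450 that oxidises caffeine and aromatic amines. Its signal was 1611 and 1883 on the PEPCK-TAg arrays, against 6280 and 3866 on the wild-type arrays. The groups did not overlap, and the wild-type arrays were far apart, replicate 1 being 1.62 times replicate 2. The log2 change was -1.49 ± 0.24 (SE), with a 95% interval from -2.07 to -0.92 (limma, Benjamini-Hochberg adjusted p = 0.0151). Without wild-type replicate 1 the change was -1.14 and the call held (adjusted p = 0.0277).

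Avpr1a encodes the V1a vasopressin receptor, which in the liver raises calcium and stimulates glycogen breakdown. Its brighter probe set, 92532_at, had signals of 128 and 91.9 on the PEPCK-TAg arrays and 466 and 304 on the wild-type arrays. The 2 groups were well apart although the arrays within each differed by 1.39 and 1.53 times. The change of -1.68 ± 0.26 was the deepest of the 8 genes (limma, Benjamini-Hochberg adjusted p = 0.0134) and stood at place 27 among the falls of all 7453 tested probe sets. The dimmer probe set, 161189_r_at, read 84.9 and 47.6 on the PEPCK-TAg arrays and 201 and 118 on the wild-type arrays. It had the same direction, without overlap, and a change of -1.12 ± 0.34 that did not pass (limma, adjusted p = 0.0923). The letter r in its name marks a probe set for which the manufacturer relaxed its probe selection rules.

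Rgn encodes regucalcin, a gluconolactonase of vitamin C synthesis in the mouse. Its arrays lay close together within each group, with signals of 3423 and 3546 on the PEPCK-TAg arrays and 7247 and 6824 on the wild-type arrays. PEPCK-TAg liver thus held 49.5% of the wild-type mean signal, a log2 change of -1.01 ± 0.13 (limma, Benjamini-Hochberg adjusted p = 0.00689).

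Cyp2e1 encodes the P450 that oxidises ethanol and paracetamol in central hepatocytes. Its signals were 8438 and 8820 on the PEPCK-TAg arrays and 12378 and 11681 on the wild-type arrays, among the brightest on every array (the top 0.27% of probe sets or higher). The groups were apart by more than the spread within either of them, at 71.7% of the wild-type mean. The log2 change was -0.48 ± 0.12, with a 95% interval from -0.76 to -0.20, and missed the threshold (limma, Benjamini-Hochberg adjusted p = 0.0539). With quantile normalization or cyclic loess the change was -0.16 or -0.14 (limma, adjusted p = 0.332 and 0.462), and with arrays centred on their medians it was -0.62 and passed (adjusted p = 0.0273).

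Glul encodes glutamine synthetase, which is confined in normal liver to the hepatocytes that touch the central vein and depends on beta-catenin there. Its brighter probe set, 161826_r_at, was the one read in counts and also carries the letter r of relaxed probe selection. It read 684 and 712 on the PEPCK-TAg arrays and 598 and 529 on the wild-type arrays, with PEPCK-TAg above wild type on every array. The other probe set, 94852_at, read 125 and 113 on the PEPCK-TAg arrays and 141 and 150 on the wild-type arrays, with PEPCK-TAg below. The 2 probe sets of the gene therefore disagreed in direction, with log2 changes of 0.31 (95% interval -0.073 to 0.68) and -0.26 (95% interval -0.71 to 0.18). Neither passed (limma, Benjamini-Hochberg adjusted p = 0.278 and 0.428), and neither lower bound reached the fall of Rgn, Cyp1a2 or Avpr1a.

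Oat encodes ornithine aminotransferase, which feeds ornithine carbon towards glutamate in central hepatocytes. Its probe set 92848_at had signals of 1214 and 1322 on the PEPCK-TAg arrays and 1207 and 1313 on the wild-type arrays. The groups overlapped, and the change was 0.0089 with a 95% interval from -0.35 to 0.37 (limma, Benjamini-Hochberg adjusted p = 0.975). The second probe set, 161278_r_at, lay below the filter on low values, with 13 and 29.2 on the PEPCK-TAg arrays and 14.8 and 26.1 on the wild-type arrays.

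**Figure D1:**
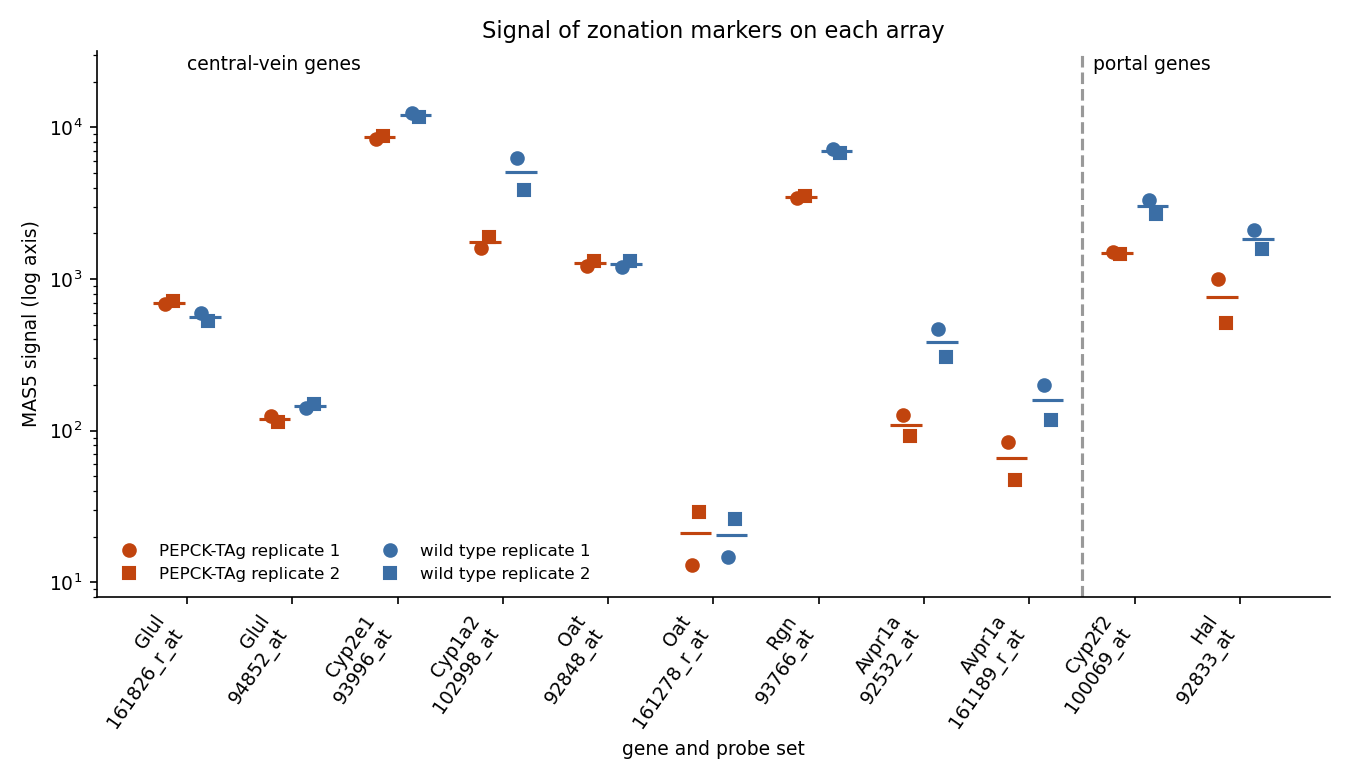
MAS5 signal (log axis) of each of the 11 probe sets of the zonation markers, with 1 point per array and a line at the mean of each group of 2 arrays. PEPCK-TAg lies below wild type for Cyp1a2, Rgn, Avpr1a, Cyp2e1, Cyp2f2 and Hal, the groups overlap for both Oat probe sets, and the 2 Glul probe sets part in opposite directions.

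On the portal side, Cyp2f2 encodes the P450 that activates naphthalene and is a standard marker of portal hepatocytes in the mouse. Its signals were 1508 and 1460 on the PEPCK-TAg arrays and 3329 and 2688 on the wild-type arrays. It fell to 49.3% of the wild-type mean, a log2 change of -1.005 ± 0.16 (limma, Benjamini-Hochberg adjusted p = 0.0147), which is close in size to the fall of Rgn on the central side.

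Hal encodes histidine ammonia-lyase, the first enzyme of histidine breakdown. It read 1004 and 517 on the PEPCK-TAg arrays and 2093 and 1575 on the wild-type arrays. PEPCK-TAg was lower without overlap, but its 2 arrays differed by 1.94 times. The change of -1.32 ± 0.32 just missed the threshold (limma, Benjamini-Hochberg adjusted p = 0.0502), and its size rested on which PEPCK-TAg array was used. It was -1.79 without PEPCK-TAg replicate 1, which passed, and -0.85 without PEPCK-TAg replicate 2, which did not (limma, adjusted p = 0.00375 and 0.0882). Without wild-type replicate 1 or 2 it was -1.11 or -1.52 and did not pass (limma, adjusted p = 0.166 and 0.0723).

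As sets, the 6 central genes had 3 falls and a median log2 change of -0.74, and the 2 portal genes had 1 fall and a median of -1.16, where the median over all tested probe sets was 0.0074. Read by the other probe set of Glul, Avpr1a and Oat, the central set had 2 falls among 5 tested genes, since that of Oat lay below the filter. Groups did not overlap with PEPCK-TAg lower for 6 of 8 genes, 12 of 15 general hepatocyte markers and 26.3% of all tested probe sets. They did not overlap with PEPCK-TAg higher for 1 gene, Glul by its brighter probe set (30.2% of all tested probe sets), and in either direction for 7 (56.5% of all). Per array, relative to the wild-type mean of each gene, the central genes averaged -0.73 and -0.72 in PEPCK-TAg, against 0.13 and -0.13 in wild type. The portal genes averaged -0.91 and -1.41 in PEPCK-TAg, against 0.18 and -0.18 in wild type. Both sets were thus lower on both PEPCK-TAg arrays. The difference, central minus portal, was 0.18 and 0.69 in PEPCK-TAg and -0.053 and 0.053 in wild type. It is given without a test, since the members were chosen with results of these data known, and the larger PEPCK-TAg value comes from the array on which Hal was 517.

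**Figure D2:**
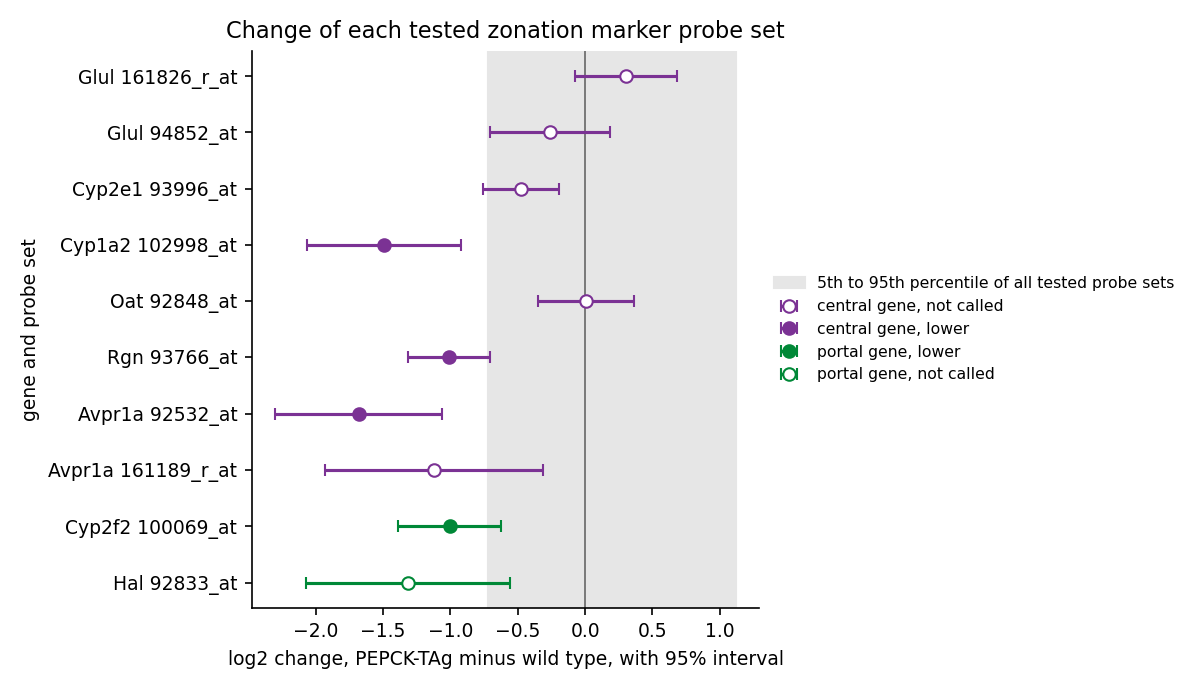
Log2 change of each of the 10 tested probe sets, PEPCK-TAg minus wild type, with its 95% interval from limma. Filled points passed the threshold, open points did not, and the grey band holds the middle of the distribution of all tested probe sets. The brighter Avpr1a probe set (-1.68), Cyp1a2 (-1.49), Rgn (-1.01) and Cyp2f2 (-1.005) are filled and lie left of the band. Hal (-1.32) and the dimmer Avpr1a probe set (-1.12) also lie left of it and are open. Cyp2e1 (-0.48), Oat (0.0089) and both Glul probe sets lie within it.

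Most of the members are bright, and brightness moved with the comparison. Among the 746 probe sets in the brightest decile, which holds Cyp2e1, Cyp1a2, Rgn, Cyp2f2 and Oat, the median log2 change was -0.19 and 12.6% were called lower. In the middle of the brightness range, in the decile that holds the brighter Avpr1a probe set, the median was 0.044 and 1.34% were called lower. With quantile normalization and cyclic loess, which align the arrays over the whole range of brightness, Rgn changed by -0.75 and -0.76, Cyp1a2 by -1.26 and -1.31, and Cyp2f2 by -0.87 and -0.86, and each still passed (limma, Benjamini-Hochberg adjusted p of 0.0228 or less). Under the same scalings Cyp2e1 changed by only -0.16 and -0.14 and did not pass (limma, adjusted p = 0.332 and 0.462). Hal changed by -1.27 and -1.24 and did not pass either (limma, adjusted p = 0.0676 and 0.0602).

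**Figure D3:**
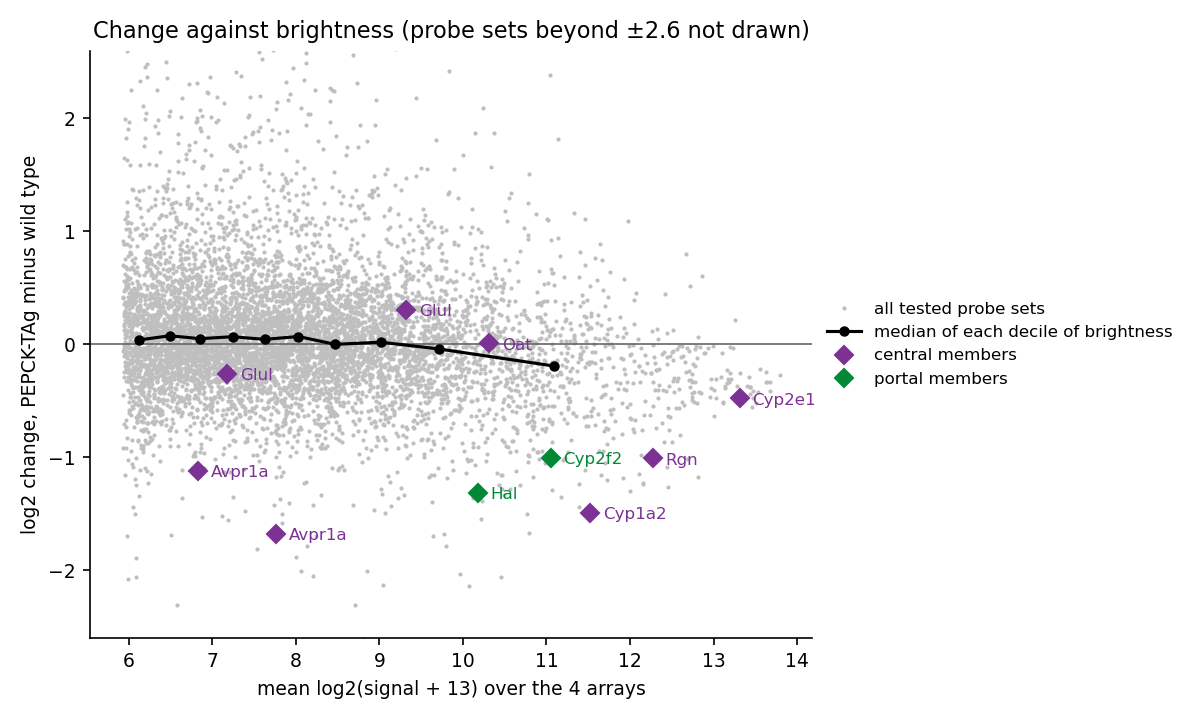
Log2 change, PEPCK-TAg minus wild type, against the mean log2(signal + 13) over the 4 arrays for all tested probe sets (grey) and the zonation markers (diamonds). The black line joins the medians of the deciles of brightness and reaches -0.19 in the brightest, with Cyp1a2, Rgn and Cyp2f2 well below it and Oat above it.

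The labelled tissue was checked with general hepatocyte markers, which were bright on all 4 arrays except for Hnf4a. Hnf4a read 136 and 20.3 in PEPCK-TAg and 113 and 124 in wild type. Albumin (Alb), the most abundant, had 13339 and 12446 on the PEPCK-TAg arrays and 16723 and 14430 on the wild-type arrays, and did not pass (limma, Benjamini-Hochberg adjusted p = 0.237). Of 15 hepatocyte markers tested, 2 fell and 0 rose, with a median of -0.43. By the brightest probe set of each gene, values were below 0 for 15 of the 15, where this held for 3686 of all 7453 tested probe sets. The second Hpx probe set, 161827_f_at, went the other way, at 4866 and 4813 in PEPCK-TAg and 3887 and 3472 in wild type. Its change was 0.40 and did not pass (limma, adjusted p = 0.121). The second Apoa2 probe set was lower (-0.14). PEPCK-TAg was lower without overlap for 12 of the 15. The summed signal of the 15 markers was 96669 and 89200 in PEPCK-TAg against 127646 and 115200 in wild type, or 76.5% of it. With quantile normalization and cyclic loess the median of the 6 central members moved from -0.74 to -0.45 in both, with 3 falls in each. Under the same scalings the hepatocyte median was -0.13 and -0.14 and the count of hepatocyte falls 0 and 1. The count was 0 when PEPCK-TAg replicate 2 or wild-type replicate 1 was left out, and 1 when PEPCK-TAg replicate 1 was. The summed signal of the 6 central members was 60.5% and that of the 2 portal members 46.3% of wild type. In bulk liver RNA, fewer cells of a type and less RNA per cell cannot be told apart.

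Markers of other cells moved with the same comparison. Of 13 tested markers of dividing cells 13 rose, with a summed signal over 17 genes of 11397 and 8887 in PEPCK-TAg against 1493 and 1424 in wild type. The filter uses the mean of all 4 arrays, so some passed it only through their PEPCK-TAg signals, which partly sets this count. Top2a, named for its low wild-type signal, read 297 and 166 in PEPCK-TAg and 6.1 and 5.4 in wild type. The 4 below the filter were Kif11, Aurkb and Bub1, higher on both PEPCK-TAg arrays, and Mcm6, where the groups overlapped. Each gene was counted by its brightest probe set. The second Mki67 probe set, 161931_r_at, was lower without overlap, at 70.1 and 75.1 in PEPCK-TAg and 99.1 and 81.9 in wild type. It did not pass (limma, adjusted p = 0.516). The other tested probe sets of Mcm3 and Plk1 rose. Of 13 macrophage markers 6 rose, and their sum was 13910 and 18569 in PEPCK-TAg against 4266 and 7743 in wild type. Among them Ctss, a lysosomal protease gene, read 2526 and 3540 in PEPCK-TAg and 775 and 1394 in wild type. PEPCK-TAg was higher without overlap for 9 of the 13, against 30.2% of all tested probe sets. The groups overlapped for Adgre1, Csf1r, Marco and Lyz2. The second Csf1r probe set was lower without overlap, at 52.7 and 28.6 in PEPCK-TAg and 97.9 and 76.1 in wild type. The macrophage count was 2 without PEPCK-TAg replicate 2, 3 without wild-type replicate 1 and 10 without wild-type replicate 2. Among all tested probe sets 6.4% were called higher. The sum of 11 endothelial markers was 2044 and 2898 in PEPCK-TAg against 3153 and 3271 in wild type, with 0 of 10 tested called by limma. Bile duct keratins Krt7 and Krt19 were near the bottom of the scale, at 15.9 or less on every array. Of 6 tested stellate cell markers 1 rose, the collagen gene Col3a1, which was chosen after its values were seen and read 277 and 512 in PEPCK-TAg and 124 and 137 in wild type (limma, Benjamini-Hochberg adjusted p = 0.0284). In the remaining 2 probe sets of Col3a1 the groups overlapped. The 3 markers below the filter, Acta2, Des and Pdgfrb, were higher on both PEPCK-TAg arrays at signals of 34.7 or less. The sum of 9 stellate cell markers, most of it from Dcn, was 3150 and 4548 in PEPCK-TAg against 3454 and 3273 in wild type. The part of these cells in the falls of the zonation markers was not tested.

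Other genes known to be higher near the central vein were read from a list of 33, of which 17 were on the array and 12 passed the filter. Of these 12, 1 fell and 0 rose, with a median log2 change of -0.34 and 11 of 12 values below 0. Of all 7453 tested probe sets 3686 had values below 0 and 3.07% were called lower. The gene that fell was Lect2, a secreted hepatocyte protein and a beta-catenin target, with signals of 489 and 630 on the PEPCK-TAg arrays and 1036 and 988 on the wild-type arrays (-0.85 ± 0.18; limma, Benjamini-Hochberg adjusted p = 0.0335). Its call was lost without PEPCK-TAg replicate 1 or either wild-type array (limma, adjusted p = 0.136, 0.101 and 0.0756). The count of falls in this list was 3 without PEPCK-TAg replicate 2. Slc1a2, the glutamate transporter of the cells that also express Glul, read 126 and 91.6 in PEPCK-TAg and 130 and 149 in wild type, and did not pass (limma, adjusted p = 0.391).

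The classical readouts of Wnt signalling were dim. Axin2, a feedback inhibitor of the pathway, read 38.1 and 45.1 on the PEPCK-TAg arrays and 61.3 and 38.6 on the wild-type arrays, and Lgr5, a receptor for R-spondins, 3.7 and 3.8 in PEPCK-TAg and 5.0 and 3.5 in wild type. Both lay below the filter on low values, and their groups overlapped. Tbx3, a transcription factor gene expressed near the central vein and singled out after its values were seen, was also below the filter, with 26.8 and 29.1 in PEPCK-TAg and 82.4 and 73.5 in wild type.

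Of 29 Wnt pathway genes, 20 were on the array and 13 were tested, with 0 called by limma and a median of -0.13. Leaving out PEPCK-TAg replicate 2 turned that median to 0.044 and gave 1 fall, and a filter at the 60th percentile turned it to 0.028. Ctnnb1, which encodes beta-catenin, had 3196 and 2876 on the PEPCK-TAg arrays and 2693 and 2613 on the wild-type arrays, a change of 0.19 with a 95% interval from -0.14 to 0.52 (limma, Benjamini-Hochberg adjusted p = 0.435). The smallest p-values were those of the co-receptor gene Lrp6, at 351 and 349 in PEPCK-TAg and 451 and 520 in wild type, and of the receptor gene Fzd7 (limma, adjusted p = 0.144 and 0.177). The summed signal of the 20 genes was 7167 and 7018 in PEPCK-TAg against 7139 and 7074 in wild type, so the groups overlapped. Its largest part came from Ctnnb1, which was higher on both PEPCK-TAg arrays, so the sum says little of the other genes. Of the 13 tested genes, PEPCK-TAg was lower without overlap for 4 and higher for 2. Among all tested probe sets these shares were 26.3% and 30.2%.

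Other genes known to be higher near the portal tract were read from a list of 28, of which 19 were on the array and all of those 19 were tested. Of these, 4 fell and 0 rose, with a median log2 change of -0.31 and 16 of 19 values below 0, beside the same 3.07% called lower and 3686 of 7453 below 0 among all tested probe sets. Apoa4, an apolipoprotein gene, had 1226 and 2105 on the PEPCK-TAg arrays and 4143 and 4668 on the wild-type arrays (-1.45 ± 0.25; limma, Benjamini-Hochberg adjusted p = 0.0196). Agxt, whose product detoxifies glyoxylate, read 331 and 308 in PEPCK-TAg and 995 and 633 in wild type (-1.28 ± 0.24; adjusted p = 0.0224 by limma). The growth factor gene Igf1 and the sulfotransferase gene Sult5a1 also fell, with log2 changes of -0.62 and -1.502, and Sult5a1 had signals of 33.2 and 21.9 in PEPCK-TAg against 132 and 76.1 in wild type. The second Igf1 probe set did not pass (-0.38; limma, adjusted p = 0.275), and the brighter one lost its call with quantile normalization (-0.44; adjusted p = 0.0904) and cyclic loess (-0.42; adjusted p = 0.100). The call of Agxt was lost without wild-type replicate 1 (limma, adjusted p = 0.0504), that of Apoa4 without wild-type replicate 1 or 2 (0.0538 and 0.0634), that of Sult5a1 without PEPCK-TAg replicate 2 (0.109; it lay below the filter without wild-type replicate 1 or 2) and that of Igf1 without any 1 of the 4 arrays (0.0709 to 0.189). Leaving out wild-type replicate 1 gave 0 falls in the list, and leaving out PEPCK-TAg replicate 2 gave 2.

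Cps1, which encodes the carbamoyl phosphate synthetase that starts the urea cycle, read 9173 and 7969 on the PEPCK-TAg arrays and 9310 and 8758 on the wild-type arrays, a change of -0.079 with a 95% interval from -0.39 to 0.23 (limma, Benjamini-Hochberg adjusted p = 0.761). With quantile normalization and cyclic loess its change was 0.22 and 0.24, so its direction depended on the scaling. Pck1, the gene whose promoter drives the transgene, read 1605 and 566 in PEPCK-TAg and 2372 and 2308 in wild type. It was lower on both PEPCK-TAg arrays, which differed widely, and did not pass (-1.28 ± 0.43; limma, adjusted p = 0.121). With PEPCK-TAg replicate 1 left out the change was -2.02, and with replicate 2 left out it was -0.54 (limma, adjusted p = 0.00118 and 0.223). PEPCK-TAg replicate 2 was the lower array for both Pck1 and Hal.

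**Figure D4:**
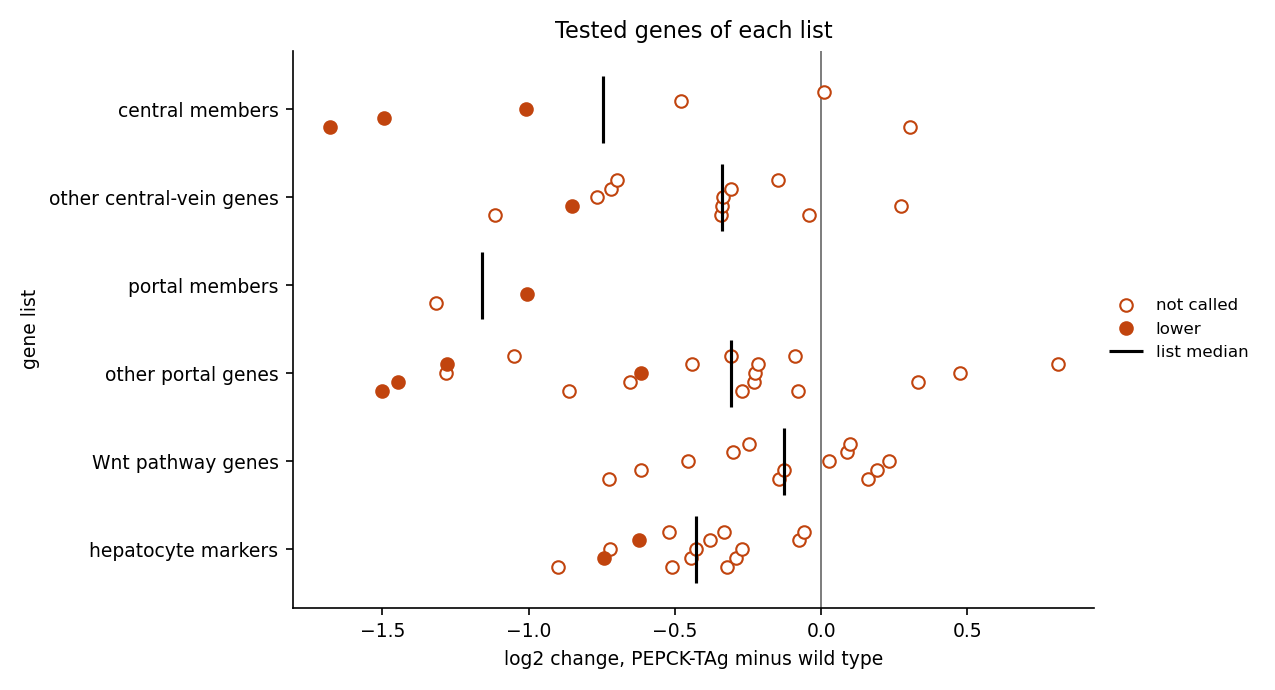
Log2 change, PEPCK-TAg minus wild type, of the tested genes of each list, with filled points for genes called lower, open points for genes not called and a black line at the list median. Medians are -0.74 and -1.16 for the central and portal members, -0.34 and -0.31 for the other central-vein and portal genes, -0.13 for Wnt pathway genes and -0.43 for hepatocyte markers.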

How the data were processed

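Each deposited value is a linear MAS5 signal intensity of 1 probe set on 1 array, made by the authors with MAS5 per the submitters' processing notes. Its version, target and detection calls are not stated there. The trimmed mean (2% off each end) was 250.2 on each of the 4 arrays, so no further scaling was applied. Instrument records of the arrays were not used. Groups came from the sample titles. Symbols came from the platform annotation, and all 11 member probe sets matched RefSeq identifiers (GRCm38.p6), with 0 symbols updated.

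After 66 control probe sets were left out, log2(signal + 13) was fitted for PEPCK-TAg minus wild type with limma 3.58.1 in R 4.3.3 (lmFit, eBayes with trend, 2 residual and 4.61 prior degrees of freedom). Fold changes on this scale understate those of dim genes. Tested were 7453 probe sets whose mean reached the 40th percentile, a signal near 48.1; 10 of the 11 member probe sets passed. P-values were two-sided and adjusted by Benjamini-Hochberg over all tested probe sets, with a threshold of 0.05. A gene was read by its brightest probe set in counts. The number of arrays limits precision. The members and the gene lists were chosen with earlier results of these data known, so sets are described by counts and medians without a test. Genes named from the lists were those past the threshold or of smallest p, and Axin2, Lgr5, Slc1a2, Pck1, Cps1, Ctnnb1 and Alb in any case. For markers of other cell types up to 4 of the brightest could be named, and some others were named after their values were seen. The procedure was run on simulated arrays with independent noise that depended only on brightness, without the shift of bright probe sets seen here. That run tried the procedure and does not bear on the calls made here. Same-numbered arrays of the groups deviated from their group means with r = 0.18 over probe sets, and nothing in the labels says that the number marks a shared animal or day. The alternatives changed the offset, the filter, the normalization between arrays, the variance trend, the arrays used and the block, and, chosen after seeing the data, the probe set read for a gene.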

Additional observations from a re-analysis of the deposited data

How the results depend on the processing

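The calls and directions of Avpr1a (92532_at), Cyp1a2, Rgn and Cyp2f2 held in 13 of 13 alternatives. Cyp2e1 passed in 4 and Hal in 5 of 13, and neither changed sign. Counts of falls among central members were 3 or 4 in every alternative except 2 with the other probe set of Glul, Oat and Avpr1a, a choice made after seeing the data, where the central median was -1.01 over 5 genes, because the other Oat probe set lay below the filter and its value near 0 left the set. That median was -0.45 with quantile normalization, -0.45 with cyclic loess and -0.89 with median centring. Portal falls were 2 with an offset of 50, with the filter at the 60th percentile, with median centring and with the replicate block, and 1 to 2 when an array was left out. Oat, at 0.0089, was at -0.14 with median centring and between -0.052 and 0.070 without 1 array. Alb was at 0.11 with cyclic loess, and Cps1 at 0.22 with quantile normalization, 0.24 with cyclic loess and between -0.18 and 0.023 without 1 array.

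Over all probe sets, lower calls numbered 105 with no filter, 409 with median centring and 117 without the variance trend; leaving out an array gave 288 to 420 higher and 110 to 143 lower. The numbers 1 and 2 are shared by both groups only as labels; with the replicate block 444 were lower, and falls numbered 4 among other central-vein genes, 7 (with 1 rise) among other portal genes and 8 among hepatocyte markers, while 10 macrophage markers rose and Pck1 and Hal passed (limma, adjusted p = 0.0279 and 0.00324). With no filter, falls were 0 among other central-vein, other portal and hepatocyte genes, 2 macrophage markers rose and the Wnt median was -0.20. Without the variance trend, falls were 0 among other central-vein and hepatocyte genes and 3 macrophage markers rose. With the filter at the 60th percentile, the medians were -0.52 for other central-vein genes, 0.028 for Wnt genes and 2.42 for dividing cell markers. With median centring, 2 other central-vein and 6 hepatocyte genes fell, with medians of -0.48 and -0.57, and the medians of other portal and Wnt genes were -0.45 and -0.27. With quantile normalization, 2 other central-vein and 0 hepatocyte genes fell, with medians of -0.13 for hepatocyte and -0.25 for Wnt genes. With cyclic loess, 1 hepatocyte gene fell, and those medians were -0.14 and -0.19. The dividing cell median was 2.95 with an offset of 1 and 2.17 with an offset of 50.

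Without 1 array, falls ranged from 0 to 3 (median -0.51 to -0.34) for other central-vein genes, 0 to 5 (-0.45 to -0.18, with 0 to 1 rises) for other portal genes, 0 to 1 (-0.10 to 0.044) for Wnt genes and 0 to 2 (-0.52 to -0.27) for hepatocyte markers. Rises ranged from 2 to 10 (0.62 to 1.70) for macrophage markers, and the medians from 2.40 to 2.77 for dividing cell and -0.50 to -0.067 for endothelial markers. The causes were not tested. Axin2, Lgr5 and Tbx3, whose mean signals lay below the filter, were not tested.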

Other observations

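A few genes of the wider zonation lists were singled out after their values were seen and are given as values. Nr1i3, the nuclear receptor gene CAR of central hepatocytes, had 3 probe sets. The brightest, 102171_r_at, read 155 and 387 in PEPCK-TAg and 576 and 520 in wild type, and 104507_g_at read 85.7 and 273 in PEPCK-TAg and 527 and 538 in wild type. Both had PEPCK-TAg below wild type without overlap, with PEPCK-TAg replicate 1 the lowest array, and neither passed (limma, Benjamini-Hochberg adjusted p = 0.126 and 0.0663). The groups overlapped in the third, 104506_at, with 145 and 440 in PEPCK-TAg and 528 and 405 in wild type.

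On the portal side, 3 of the 19 tested genes had values above wild type on both PEPCK-TAg arrays without passing. Over all tested probe sets 30.2% were apart in that direction. PEPCK-TAg was lower without overlap for 12 of the 19 genes, against 26.3% of all tested probe sets. Ctsc, which encodes cathepsin C, read 1015 and 1248 in PEPCK-TAg and 528 and 767 in wild type by its brightest probe set (limma, Benjamini-Hochberg adjusted p = 0.0711), while its other 2 overlapped between the groups, 101020_at with 31.3 and 791 in PEPCK-TAg and 260 and 34.2 in wild type. Ass1, an enzyme gene of the urea cycle, read 515 and 585 in PEPCK-TAg and 473 and 324 in wild type, and Cdh1, which encodes E-cadherin, 296 and 352 in PEPCK-TAg and 261 and 246 in wild type (limma, adjusted p = 0.224 and 0.282). The cause of these differences was not tested.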
